A study of Mus musculus with 27 samples.

Results

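The transcripts described here are those of the Groucho (Tle) and Ctbp corepressors and of the deacetylases Hdac1 and Hdac2 in mK4 cells, a mouse kidney line derived from the metanephric mesenchyme. The 9 members, Tle1, Tle2, Tle3, Tle4, Tle6, Ctbp1, Ctbp2, Hdac1 and Hdac2, were chosen by symbol as the repression partners of Runx (Tle) and Zeb (Ctbp) factors, and each had a row among the 24953 genes of the expression table. Poly(A) RNA-seq was compared between parental control cells, Runx1KO cells and ZebDKO cells, with 3 libraries of each. The Runx1KO cells lack the Runx1 exon that holds the start codon used in mK4 cells, and the ZebDKO cells lack the exons with the start codons of both Zeb1 and Zeb2. Both lines were made by CRISPR/Cas9 from the control line, and the number of clones behind the libraries of a genotype is not given in the sources used here. ATAC-seq and ChIP-seq for Runx1 and Runx2, from control and Runx1KO cells, were used at the same genes.

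Groucho proteins bind no DNA themselves. They are brought to chromatin by factors such as Runx and Hes proteins, which carry a short C-terminal peptide. The Tcf/Lef factors of the Wnt pathway recruit them as well. Groucho proteins repress in part through histone deacetylases. Ctbp1 and Ctbp2 are NAD(H)-binding corepressors that recognise a different short motif, found in Zeb1 and Zeb2, and join the demethylase Kdm1a, the Rcor scaffolds and the methyltransferases Ehmt1 and Ehmt2 in one complex. Hdac1 and Hdac2 are the paired catalytic subunits of the CoREST, NuRD and Sin3 complexes. Zeb1 and Zeb2 are known repressors of epithelial genes in mesenchymal cells.

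Before the members, the state of the libraries was examined. Levels are given in TPM, a count corrected for transcript length and scaled to the same total in each library, so sequencing depth cannot be read from them. From 12541 to 12697 genes stood at 1 TPM or above in each of the 9 libraries. Runx1 itself read 18.7, 15.6 and 17.9 TPM in control cells, 30.3, 30.1 and 28.5 TPM in Runx1KO cells and 9.4, 10.5 and 10.4 TPM in ZebDKO cells. The lost exon is therefore not visible as a lower Runx1 level. Zeb1 read 15.1, 14.2 and 15.6 TPM in control, 0.1, 0.2 and 0.2 TPM in Runx1KO and 16.8, 16.6 and 14.8 TPM in ZebDKO libraries, and Zeb2 averaged 5.2, 0.2 and 1.7 TPM in the same order. Gene totals do not check an exon deletion, and the Zeb1 total in the ZebDKO libraries did not differ from control (log2 fold change 0.10, adjusted p = 0.205, limma). Of 11 metanephric mesenchyme markers, 7 were at 1 TPM or above in every control library, with Six2 and Hoxd11 at 0, against 5 in Runx1KO and 7 in ZebDKO libraries. The summed level of 9 epithelial markers was 2.8 to 5 TPM in control, 2660.6 to 2742.6 TPM in Runx1KO and 1150.4 to 1209.6 TPM in ZebDKO libraries, mostly from Krt8, with Epcam listed at 0 in the control and Runx1KO libraries. Cdh1 and Cldn7 stayed under 1 TPM in every library. The summed level of 6 mesenchymal markers, mostly Vim, was 3073.5 to 3204.8 TPM in control libraries. It was 2943 to 3004.6 TPM in Runx1KO and 2355.4 to 2390.4 TPM in ZebDKO libraries. Blood and endothelial marker sums stayed at or below 9.8 TPM and 5.8 TPM. The part of the rise in the epithelial marker sum in the member differences below was not tested. In bulk libraries fewer cells of a type and less RNA per cell cannot be told apart.

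The 9 members spanned levels from near 1 TPM to near 300 TPM. In control libraries the order of mean TPM was Hdac1 (290 ± 7.72, SD, n = 3), Hdac2 (220 ± 10.7), Ctbp1 (42.5 ± 1.20), Ctbp2 (29.4 ± 0.82), Tle3 (26.97 ± 1.01), Tle4 (9.43 ± 0.47), Tle2 (5.17 ± 0.72), Tle6 (3.6, the same in all 3 libraries to 1 decimal) and Tle1 (1.5 ± 0.20). The library values of no neighbours in that order overlapped. In Runx1KO libraries Tle4 stood above Tle3 and Tle6 above Tle2, and in ZebDKO libraries only the latter exchange was seen. A separately deposited table of the control and Runx1KO libraries gives other TPM levels for the same genes, from 4.81 times as high for Tle1 to 0.57 times as high for Hdac2 in control libraries. There Tle1 and Tle6 overlapped and both lay above Tle2, so the order of the low Tle genes depends on the table, whereas the exchange of Tle3 and Tle4 appears in both.

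**Figure D1:**
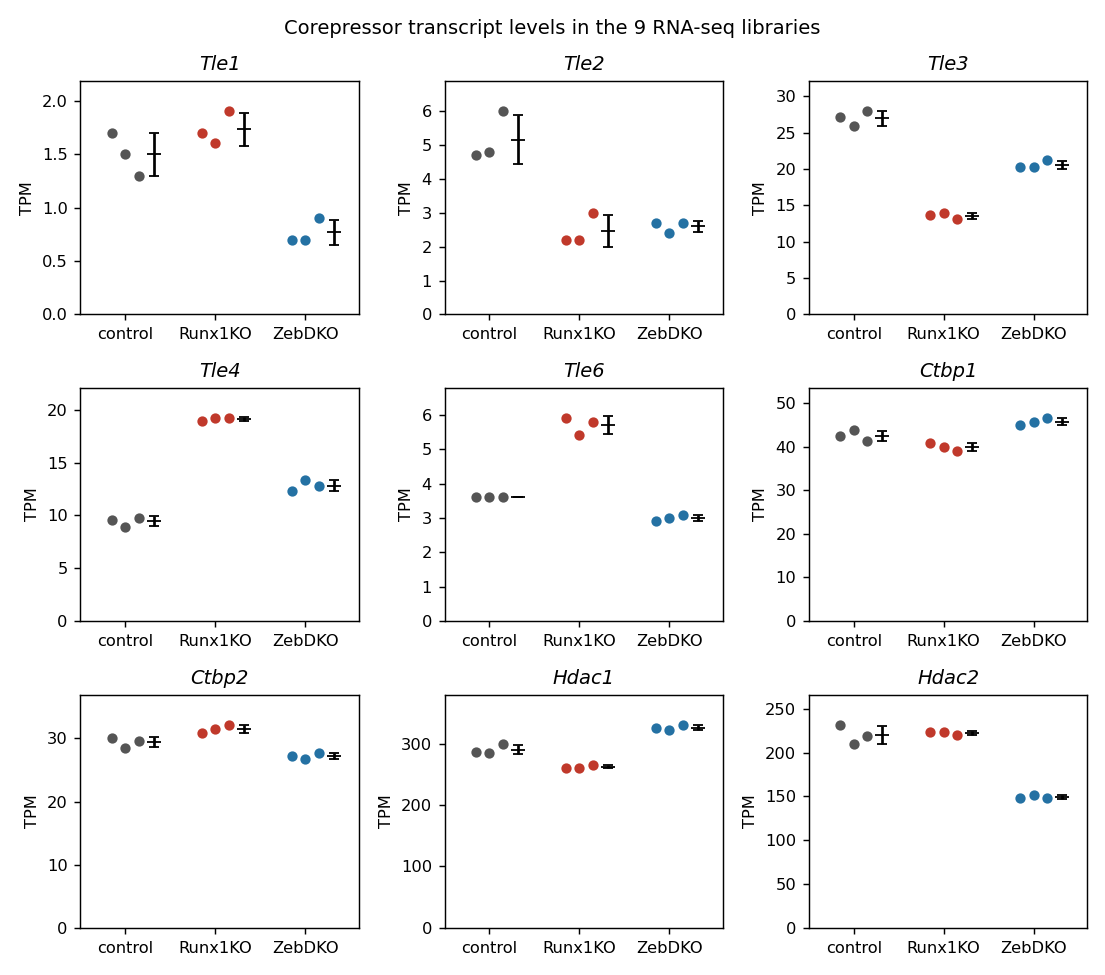
Transcript level in TPM (vertical axes, from 0) of each of the 9 members in control, Runx1KO and ZebDKO libraries. Points are libraries, and the bar beside them is the mean with its SD (n = 3). Tle4 lies at 18.9 to 19.2 TPM in Runx1KO libraries and at 8.9 to 9.8 TPM in control libraries, while Tle3 moves from 25.9 to 27.9 TPM in control down to 13.1 to 13.9 TPM in Runx1KO libraries.

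The first comparison asked how the Runx partners responded to loss of Runx1. Tle3, the most abundant of the Tle members in control cells, read 27.1, 25.9 and 27.9 TPM there and 13.7, 13.9 and 13.1 TPM in Runx1KO libraries. Tle4 read 9.6, 8.9 and 9.8 TPM in control cells and 18.9, 19.2 and 19.2 TPM in Runx1KO libraries. The libraries of the genotypes did not overlap for either gene, and the shifts were near mirror images. Tle3 fell by 0.94 on the log2(TPM + 1) scale (SE 0.04, adjusted p = 2.2e-06, limma), and Tle4 rose by 0.95 (SE 0.05, adjusted p = 2.99e-06). As ratios of mean TPM these were 0.503 for Tle3 and 2.03 for Tle4.

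The remaining Tle members were lower in abundance. Tle2 read 4.7, 4.8 and 6.0 TPM in control libraries against 2.2, 2.2 and 3.0 TPM in Runx1KO libraries, and fell by 0.83 (SE 0.12, adjusted p = 0.000732). Tle6 is a divergent relative best known from the maternal protein complex of the oocyte. It read 3.6 TPM in each control library and 5.9, 5.4 and 5.8 TPM in Runx1KO libraries, a rise of 0.54 (SE 0.06, adjusted p = 0.000143). Tle2 and Tle6 end 58 bases apart on opposite strands, and whether RNA-seq reads were counted by strand is not given in the sources used here, so reads from one could be credited to the other. Their shifts ran in opposite directions in Runx1KO cells, whereas in ZebDKO cells both were lower than control (−0.77 for Tle2 and −0.20 for Tle6). Exchange of reads between the 2 genes was not tested. Tle1 read 1.7, 1.5 and 1.3 TPM in control and 1.7, 1.6 and 1.9 TPM in Runx1KO libraries, which overlapped (log2 fold change 0.13, 95% confidence interval −0.09 to 0.35, adjusted p = 0.25). That estimate turned to −0.01 under quantile normalization.

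Neither Ctbp1 nor Ctbp2, the Zeb partners, passed the test in Runx1KO cells, where both Zeb transcripts were nearly absent. Ctbp1 read 42.4, 43.7 and 41.3 TPM in control and 40.8, 40.0 and 39.0 TPM in Runx1KO libraries (log2 fold change −0.09, 95% confidence interval −0.17 to 0.00, adjusted p = 0.063). Ctbp2 read 30.1, 28.5 and 29.6 TPM against 30.8, 31.4 and 32.1 TPM (0.09, 95% confidence interval 0.01 to 0.18, adjusted p = 0.0538). The libraries of the genotypes nevertheless did not overlap for either gene, and the calls depended on the setting. Ctbp2 passed under median-ratio scaling (0.15, adjusted p = 0.00628), without the filter (adjusted p = 0.0495), in a single fit over the 9 libraries (adjusted p = 0.0382) and in the separate table (adjusted p = 0.0208). Ctbp1 passed in the fit over the 9 libraries (adjusted p = 0.0447). Hdac1 read 285.9, 285.2 and 298.9 TPM in control and 261, 260.9 and 265.7 TPM in Runx1KO libraries, and fell by 0.14 (SE 0.03, adjusted p = 0.00246). Hdac2 read 231.4, 210.2 and 218.6 TPM against 223.4, 223.8 and 220.2 TPM, with overlapping libraries (log2 fold change 0.02, adjusted p = 0.707), and its estimate turned to −0.02 without control replicate 2.

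By count, 5 of the 9 members passed an adjusted p of 0.05, where 70.5% of the 13067 genes tested did. Tle4 and Tle6 were higher (30.4% of genes tested were) and Tle2, Tle3 and Hdac1 lower (40.1%). The libraries did not overlap for 7 members, against 73.7% of genes tested. None of the 9 passed the adjusted threshold with more than a 2-fold change on the log2(TPM + 1) scale, as 13.0% of genes tested did. At an unadjusted p under 0.05 there were 7 members, again with 0 over 2-fold. With a pseudocount of 0.1 in place of 1 the number over 2-fold was 2, Tle2 (−1.04) and Tle4 (1.01), while Tle3 stayed inside the limit (−0.99). The median absolute log2 fold change was 0.14 over the members and 0.28 over the genes tested.

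The second comparison asked what loss of Zeb1 and Zeb2 did to the same genes. Over the 12974 genes tested the median log2 fold change of ZebDKO against control was −0.18, so each member's shift is also given relative to that median. Tle2 read 2.7, 2.4 and 2.7 TPM in ZebDKO libraries and fell by 0.77 against control (SE 0.10, adjusted p = 0.000211), which is −0.59 relative to the median. Tle1 read 0.7, 0.7 and 0.9 TPM, below every control library, and fell by 0.50 (adjusted p = 0.00287), or −0.32 relative to the median. Tle1 met the 1 TPM filter in this comparison only through control libraries, and such entry favours a fall. At this level the single decimal of the table is a coarse step. Tle3 read 20.3, 20.2 and 21.2 TPM and fell by 0.37 (SE 0.05, adjusted p = 0.000163), or −0.19 relative to the median. Tle4 again went the other way. It read 12.3, 13.4 and 12.8 TPM, above every control library, and rose by 0.41 (SE 0.06, adjusted p = 0.000397), or 0.59 relative to the median. Tle6 read 2.9, 3.0 and 3.1 TPM (log2 fold change −0.20, adjusted p = 0.0215), or −0.02 relative to the median, and it lost its call under the median-ratio and quantile scalings (adjusted p = 0.53 and 0.127).

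Hdac1 and Hdac2 parted in ZebDKO cells. Hdac2 read 147.9, 152 and 148.7 TPM, below every control library, and fell by 0.55 (SE 0.04, adjusted p = 1.05e-05), or −0.37 relative to the median. Hdac1 read 326, 322 and 330.2 TPM, above every control library, and rose by 0.17 (SE 0.03, adjusted p = 0.00111), or 0.35 relative to the median. Ctbp1 read 44.9, 45.6 and 46.5 TPM (log2 fold change 0.10, adjusted p = 0.0357), or 0.29 relative to the median. Its estimate ran from 0.08 to 0.30 across the settings tried. Ctbp2 read 27.2, 26.8 and 27.7 TPM (log2 fold change −0.11, adjusted p = 0.0396), or 0.08 relative to the median, a direction that turned to 0.09 under median-ratio scaling and 0.07 under quantile normalization. The calls of Ctbp1, Ctbp2 and Tle6 were each lost in 5 of 6 fits that left out a library. The exception was control replicate 2 for both Ctbp genes and ZebDKO replicate 3 for Tle6. Tle1 fell below the 1 TPM filter whenever a control library was left out, so 5 members were called without control replicate 1 or control replicate 3.

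In all, 9 of 9 members passed the adjusted threshold in this comparison, where 79.4% of genes tested did. Tle1 entered only through control libraries, so its call and its lack of overlap carry no separate weight. Tle4, Ctbp1 and Hdac1 were higher (26.9% of genes tested were) and the other 6 lower (52.5%), and the libraries of the genotypes did not overlap for any of the 9 (81.0% of genes tested). None passed with more than a 2-fold change, as 14.8% of genes tested did, nor did any at an unadjusted p under 0.05, which 9 members met. Under median-ratio scaling the share of higher calls among all calls went from 33.9% to 50.6%, with Tle4, Ctbp1 and Hdac1 still higher. The ZebDKO libraries carry a protocol text of their own in the labels, so genotype and any separate handling cannot be told apart.

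**Figure D2:**
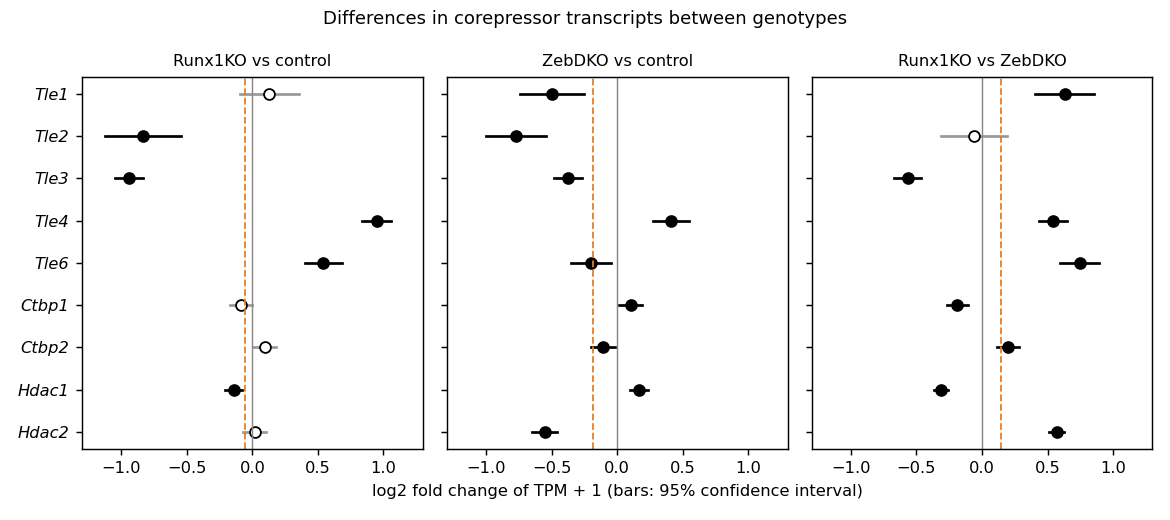
Log2 fold change of TPM + 1 (horizontal axes) for each member in the 3 comparisons, with 95% confidence intervals (limma). Filled circles passed an adjusted p of 0.05, open circles did not, and the dashed line is the median of the genes tested. Tle3 and Tle4 lie on opposite sides of 0 in each panel, and Ctbp1 and Ctbp2 lie no further than 0.20 from 0, with the Ctbp2 value of ZebDKO against control positive under other scalings. Across the settings tried the Ctbp1 value reached 0.30 in ZebDKO against control and −0.35 between the knockouts.

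Because both knockouts were set against the same control libraries, the knockouts were also compared directly, which tests whether their effects differ. The median over 13071 genes tested was 0.15 (Runx1KO over ZebDKO). Tle4 was higher in Runx1KO cells by 0.54 (SE 0.04, adjusted p = 2.13e-05) and Tle3 was lower (−0.57, SE 0.04, adjusted p = 1.42e-05). Both genes thus moved in the same direction in both knockouts, and further in Runx1KO cells. Tle6 (0.74, adjusted p = 2.29e-05) and Tle1 (0.63, adjusted p = 0.000513) were higher in Runx1KO than in ZebDKO cells. Tle1 met the filter here only through Runx1KO libraries, and such entry favours a higher value. Hdac2 was higher by 0.57 (SE 0.02, adjusted p = 8.26e-07), and Hdac1 was lower (−0.31, adjusted p = 1.11e-05). Ctbp1 was lower in Runx1KO cells (−0.19, adjusted p = 0.00128). The Ctbp2 value of 0.20 (adjusted p = 0.00123) was close to the median, and its call was lost under median-ratio and quantile scaling (0.04 and 0.01). Tle2 was low in both knockouts and overlapped between them (−0.06, 95% confidence interval −0.32 to 0.19, adjusted p = 0.613).

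That made 8 of 9 members past the adjusted threshold, where 80.0% of genes tested were. Among the 8, Tle1 entered only through Runx1KO libraries, so its call and its lack of overlap carry no separate weight. The 5 members higher in Runx1KO cells compare with 50.2% of genes tested and the 3 lower with 29.8%. Libraries did not overlap for 8 members (81.7% of genes tested). None passed with over a 2-fold change, against 15.8% of genes tested, and with a pseudocount of 0.1 there was 1, Tle1. Under median-ratio scaling the share of higher calls among all calls went from 62.7% to 49.8%. No member passed the 2-fold limit in any comparison, so the rule for naming genes of like pattern named none.

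The share of each gene within its family was then computed. TPM summed over Tle1 to Tle4 was 43.1, 41.1 and 45 in control, 36.5, 36.9 and 37.2 in Runx1KO and 36, 36.7 and 37.6 in ZebDKO libraries. Within that sum Tle3 made up 62.6% ± 0.55 (SD, n = 3) in control, 36.8% ± 1.38 in Runx1KO and 55.9% ± 0.78 in ZebDKO libraries. Tle4 made up 21.9% ± 0.33, 51.8% ± 0.21 and 34.9% ± 1.39. Tle4 thus held the largest share of this sum in each Runx1KO library. In each control and ZebDKO library it came next after Tle3. The sum leaves out Tle6 and the Groucho relative Aes. Tle2 held 12.0%, 6.69% and 7.07%, and Tle1 held 3.49%, 4.70% and 2.08%. In the separately deposited table of control and Runx1KO libraries the Tle4 share rose by 28.8 percentage points and the Tle3 share fell by 27.8 points, close to the 29.9 and 25.8 points found here. In that separate table the Tle1 to Tle4 sums of the genotypes overlapped. They were 73.24, 68.71 and 75.95 TPM in control and 68.84, 70.45 and 71.26 TPM in Runx1KO libraries.

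The Ctbp sum stayed at 70.9 to 74.2 TPM in all 9 libraries. Ctbp1 made up 59.1% ± 1.25 of it in control, 56.0% ± 1.07 in Runx1KO and 62.6% ± 0.36 in ZebDKO libraries. Hdac1 made up 56.9% ± 1.39 of the Hdac1 and Hdac2 sum in control, 54.1% ± 0.48 in Runx1KO and 68.6% ± 0.55 in ZebDKO libraries. The Hdac sum averaged 510, 485 and 476 TPM. Shares need no scaling between libraries, since numerator and denominator come from the same one. With 3 libraries against 3, the exact permutation test (two-sided) cannot go below p = 0.1. This exact permutation test gave p = 0.1 for each share in each comparison, except the Tle2 share of Runx1KO against ZebDKO cells (p = 0.7).

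**Figure D3:**
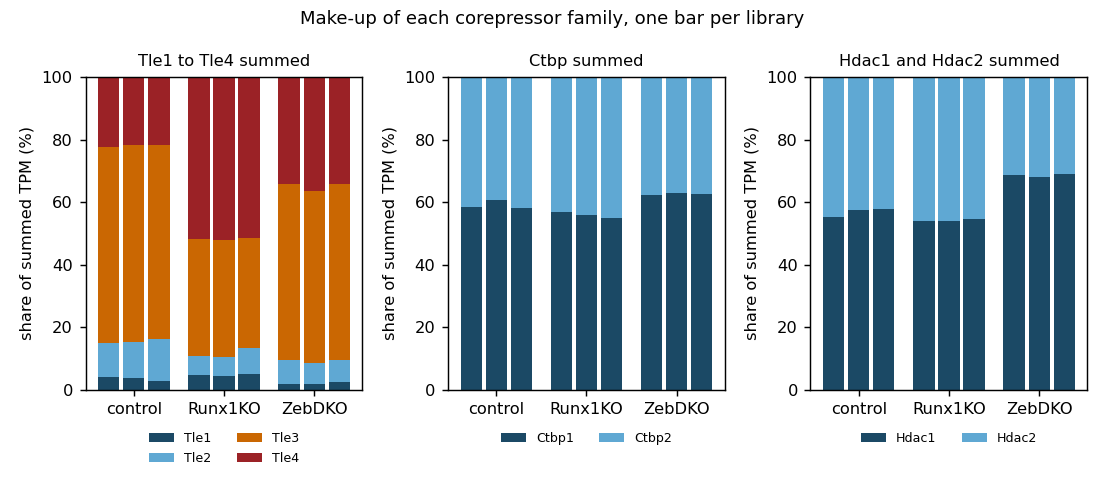
Share of the summed TPM of each family (vertical axes, percent) held by each gene, with 1 bar per library in control, Runx1KO and ZebDKO cells. Tle4 takes 51.6% to 52.0% in the Runx1KO libraries against 21.7% to 22.3% in control libraries, and Hdac1 takes 67.9% to 69.0% in ZebDKO libraries against 55.3% to 57.8% in control libraries.

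Members of a family share coding sequence, which bears on how well reads can be assigned. Among the Tle genes the closest pair in aligned coding bases was Tle1 and Tle4 (80.2% identical, with a longest identical run of 68 bases). Tle3 and Tle4 were 77.1% identical with no identical run over 21 bases, Ctbp1 and Ctbp2 75.7% (23 bases), and Hdac1 and Hdac2 75.9% (17 bases). Tle6 was 60.2% to 63.2% identical to the others. How reads matching more than 1 gene were counted is not given in the sources used here.

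The genes were then examined for Runx peaks and for ATAC-seq regions, which the authors had sorted into regions that closed in Runx1KO cells (8741), opened (9427) or stayed stable (37481). A region was assigned to a member where its midpoint lay in the gene or within 20 kb of it, on the mouse build mm9. The 10187 Runx1 peaks and 17595 Runx2 peaks of control cells and the 15608 Runx2 peaks of Runx1KO cells were called by the authors on pooled replicates, so no replicate spread is available. Of 13067 genes tested in the Runx1KO comparison, 11245 were found by name in the gene models, and the shares below are of those.

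Within this 20 kb window Tle4 was the 1 member with a Runx1 peak, while 46.7% of genes had at least 1. The number of Runx1 peaks assigned to members depended on the window, with 9 within 100 kb and 20 by the GREAT rule, which extends the domain of a gene to its neighbours. Tle4 lies on the minus strand at chr19:14522562-14672473, and the peak, chr19:14672577-14672709, is centred 170 bases upstream of the annotated start in a stable open region (fold enrichment 4.3 and −log10 q of 3.7, as the authors' peak caller gave them). A wider Runx2 peak covered it in control cells (chr19:14672482-14672905, fold 4.13) and in Runx1KO cells (chr19:14672447-14673028, fold 4.6). A further Runx2 peak lay 9.1 kb into the gene in both lines. No closing or opening region was assigned to Tle4.

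Tle3, on the plus strand at chr9:61220190-61266297, had no Runx1 peak within 20 kb and 4 closing regions, the most of any member. They were centred 5.9, 29.7, 36.8 and 63.0 kb from the annotated start, the first 3 in the gene and the last downstream of it. In control cells the Runx2 peak chr9:61257005-61257177 (fold 4.69) lay in the closing region at 36.8 kb, over a coding exon. In Runx1KO cells no Runx2 peak was listed there, and Runx2 peaks were listed 116 bases from the start (fold 2.92) and at chr9:61225732-61226108 (fold 3.48), in the closing region at 5.9 kb. Whether the Runx2 signal at these sites differs between the lines was not tested, because absence from a peak list is not a measured difference.

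The sequences of the Tle4 Runx1 peak and the Tle3 Runx2 peak are shown with that of a Runx2 peak in a closing region of Ctbp2. The Tle4 peak is the single Runx1 peak within 20 kb of a member, and at the others a Runx2 peak of control cells and a closing region coincide. They are plus-strand mm9 bases, and capitals mark the Runx motif TGTGGT or its reverse complement ACCACA. The Ctbp2 peak is chr7:140300582-140300683, in an intron 15.4 kb from the Ctbp2 start.
Tle4 Runx1 peak: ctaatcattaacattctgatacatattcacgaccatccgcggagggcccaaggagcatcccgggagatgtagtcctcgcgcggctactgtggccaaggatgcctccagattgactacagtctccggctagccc
Tle3 Runx2 peak: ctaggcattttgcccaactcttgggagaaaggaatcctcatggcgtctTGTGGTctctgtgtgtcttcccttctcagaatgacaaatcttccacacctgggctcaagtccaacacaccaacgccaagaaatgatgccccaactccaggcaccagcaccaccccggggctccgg
Ctbp2 Runx2 peak: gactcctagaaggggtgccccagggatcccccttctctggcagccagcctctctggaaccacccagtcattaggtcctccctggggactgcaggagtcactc
The Tle3 peak held 1 match to the motif, and the Tle4 and Ctbp2 peaks held none. Of all Runx1 peaks cut to the width of the Tle4 peak, 28.5% held a match, and of control Runx2 peaks cut to the widths of the Tle3 and Ctbp2 peaks, 35% and 26.7% did. A match describes these letters only.

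Of the other members, Tle2 (chr10:81037306-81053590, plus strand) had the closing region it shares with Tle6 and a closing region 10.6 kb upstream, inside the neighbouring gene Aes, that also held a control Runx2 peak. Tle6 (chr10:81053649-81063818, minus strand) had the shared region alone. Ctbp2 (chr7:140179246-140316037, minus strand) had 3 closing regions, each in an intron, and Ctbp1 (chr5:33590372-33617618, minus strand) had 2 downstream of the gene. Tle1 (chr4:71778176-71861953, minus strand), Hdac1 (chr4:129193348-129219957, minus strand), Hdac2 (chr10:36694350-36721695, plus strand) and Tle4 had none. In total 11 closing regions were assigned to 5 of 9 members, where 28.3% of genes had at least 1, and none held a Runx1 peak while 4 held a control Runx2 peak. The share of all closing regions that hold such peaks was not computed, so these overlaps only describe the regions at members. The members with closing regions included Tle3 and Tle2, which fell in Runx1KO cells. They also included Tle6, which rose and whose region is the one shared with Tle2. Tle4, which rose as well, had none. A link between closing regions and direction of change was not tested.

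Opening regions were assigned to Tle2, Tle6 and Ctbp2, with 1 each, where 39.2% of genes had at least 1. They were 13.4 kb upstream of Tle2, 11.9 kb upstream of Tle6 and 122.8 kb into Ctbp2. No closing or opening region lay within 1 kb of a member's start, where 2.12% and 3.95% of genes had one. A stable region lay within 1 kb of the start of 8 of 9 members, Tle2 excepted, where 77.1% of genes had one. A control Runx2 peak lay within 1 kb of the start of Tle1, Tle4, Ctbp1, Hdac1 and Hdac2, where 44.6% of genes had one, and each of the 9 members had a Runx2 peak within its 20 kb window (76.7% of genes). In Runx1KO cells the list of Runx2 peaks at starts held Tle3, Tle6 and Ctbp2 in addition and lacked Hdac1, where 47.2% of genes had one. The nearest control Runx2 peak of Ctbp2 was centred 1085 bases from the start, just outside the 1 kb limit.

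**Figure D4:**
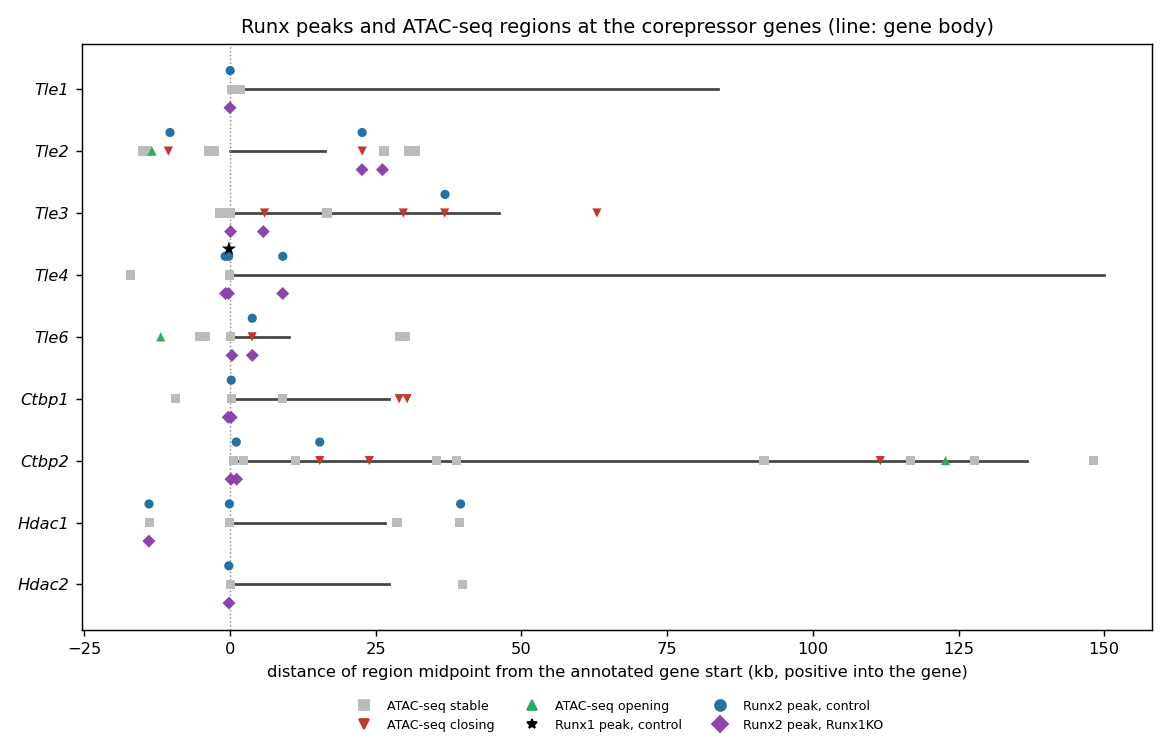
Midpoints of Runx peaks and ATAC-seq regions at each member, by distance from the annotated gene start in kb (positive into the gene), with the gene body as a line. Red triangles are closing regions, green opening and grey stable. The only Runx1 peak within 20 kb (star; 9 within 100 kb) sits at the start of Tle4, and the 4 closing regions of Tle3 lie from 5.9 to 63.0 kb.

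The factors that bring these corepressors to DNA were described in the same way. In Runx1KO against control cells their median absolute log2 fold change was 0.74 for Groucho-binding and 0.73 for Ctbp-binding factors, beside 0.14 for the 9 members and 0.28 over the genes tested. In ZebDKO against control cells the values were 0.52, 0.33, 0.37 and 0.41. The lists hold Runx1, Zeb1 and Zeb2 themselves and were chosen with results known. The first Groucho-binding median, 0.74, is the value of Runx1 itself. In Runx1KO against control cells Pax5 met the 1 TPM filter only through Runx1KO libraries. Lef1, Zeb1, Zeb2 and Mecom were among those that met it only through control libraries. In ZebDKO against control cells Six3 met it only through ZebDKO libraries. Such entry favours large changes, so these medians do not test whether the factors changed more than the members. For the counts below, 70.5% of genes tested passed in Runx1KO against control cells (30.4% higher, 40.1% lower, 13.0% with over a 2-fold change) and 79.4% in ZebDKO against control cells (26.9% higher, 52.5% lower). Of 25 listed Groucho-binding factors, 11 were expressed well enough to be tested in the first comparison, of which 5 were higher, 4 lower, and 5 changed over 2-fold. Among the Tcf/Lef factors, Lef1 read 9.4, 8.4 and 9.2 TPM in control and 0.1, 0.1 and 0.2 TPM in Runx1KO libraries (log2 fold change −3.14, adjusted p = 1.02e-07). Tcf7l1 fell by 1.40 while Tcf7 rose by 1.27, from 7.83 to 20.3 TPM. The paired-box factor Pax5 rose by 1.76 from near 0 TPM. Runx1 transcript rose by 0.74 and Runx2 fell by 0.45 (adjusted p = 0.00175), and Runx3 was at or below 0.3 TPM in every library.

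Of 15 listed Ctbp-binding factors, 9 were tested in that comparison, with 3 higher and 5 lower. Zeb1 fell by 3.77 and Zeb2 by 2.37 (adjusted p = 2.78e-08 and 3.06e-07). Mecom fell by 1.18 and Zfpm2, a partner of Gata factors, fell by 0.74. The Ctbp sum beside them averaged 71.9 TPM in control and 71.4 TPM in Runx1KO libraries.

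In ZebDKO cells, 3 Groucho-binding factors were higher and 5 lower of 11 tested. Six3 rose by 3.50, from at most 0.2 TPM to 10.3 to 13.1 TPM, and Hes1, a Notch target that recruits Groucho proteins through its C-terminus, rose by 1.41, from 305 to 815 TPM. Tcf7l1 fell by 0.79, Runx1 by 0.73 and Runx2 by 0.59. Among Ctbp-binding factors 3 were higher and 3 lower of 9. Tgif1, a repressor of TGF-beta signalling, rose by 1.21, from 38.7 to 90.9 TPM, while Zeb2 fell by 1.20, Klf3 by 0.69 and Zfpm2 by 0.39. Set directly against ZebDKO, Runx1KO cells had lower Lef1 (−2.62), Six3 (−2.48), Zeb1 (−3.87), Mecom (−1.51), Zeb2 (−1.17) and Tgif1 (−0.92), and higher Pax5 (1.76) and Runx1 (1.47). In this direct comparison Lef1, Zeb1, Zeb2 and Mecom met the filter only through ZebDKO libraries, and Pax5 only through Runx1KO libraries. Entry of that kind favours large changes. Aes, a short Groucho relative without the WD repeats, was the 1 further family gene in the table. It read 226.4, 217.5 and 223.9 TPM in control and 195.5, 189.1 and 189.5 TPM in Runx1KO libraries, and fell by 0.22 (adjusted p = 0.000308). In ZebDKO libraries Aes overlapped with control (−0.05, adjusted p = 0.436).

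The genes of the complexes around Hdac1 and Hdac2 follow. Of 12 CoREST and Ctbp complex genes, 2 rose and 5 fell in Runx1KO cells, none over 2-fold, beside 70.5% of genes tested that passed. The scaffold Rcor1 rose by 0.72, from 57.3 to 94.6 TPM, and the demethylase Kdm1a by 0.22, while Phf21a fell by 0.26 and Rcor3 by 0.20. In ZebDKO cells 2 rose and 7 fell, with Lcor down by 0.66, Rcor3 by 0.58, Ehmt1 by 0.52 and Cdyl by 0.48. Of 20 NuRD and Sin3 genes, 3 rose and 13 fell in Runx1KO cells (30.4% and 40.1% of genes tested did), led by Mta1, which rose by 0.68, and the histone-binding subunit Rbbp7, which fell by 0.59. In ZebDKO cells 9 rose and 6 fell, and the NuRD helicases Chd3 and Chd4 rose by 0.75 and 0.50.

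Of the 6 NCoR complex genes, 1 rose and 4 fell in Runx1KO cells, and 4 fell in ZebDKO cells, where Tbl1xr1 dropped by 1.25 and Ncor1 by 0.45. Of 8 other deacetylase genes tested, 4 rose and 4 fell in Runx1KO cells, where Hdac11 rose by 0.99 and Hdac8 and Hdac10 each fell by 0.61. In ZebDKO cells 3 rose and 1 fell, with Hdac5 up by 1.08, from 11.4 to 25.3 TPM. The median log2 fold changes of these lists in Runx1KO cells ran from −0.21 (NCoR) to −0.05 (other deacetylases), beside −0.06 over the genes tested. In ZebDKO cells they ran from −0.32 (NCoR) to 0.06 (other deacetylases), beside −0.18.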

How the data were processed

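The deposited RNA-seq values are TPM, given to 1 decimal for 9 libraries and to 2 decimals in a separate table of 6 libraries. Per the methods of the study, the authors ran Trim Galore on the reads, mapped them with STAR on mm9, discarded duplicate reads, and used featureCounts on RefSeq genes before scaling to TPM. The ChIP-seq peak lists hold the fold (a ratio) and the −log10 q that MACS2 gave the authors on pooled replicates. By the same methods, peaks overlapping background peaks of the Runx1 ChIP-seq in Runx1KO cells were taken out. The ATAC-seq lists were deposited by class; their columns of the authors' own comparison (a fold change and a p-value) were not used.

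Genes at 1 TPM or above in at least 3 of the 6 libraries compared were tested with limma 3.58.1 (R 4.3.3; trended variance) on log2(TPM + 1), a scale that understates the change of low genes. P-values were two-sided and adjusted by the Benjamini-Hochberg method over the genes tested, and the script was checked on simulated data. The p-values measure the spread between cultures. Because the number of clones is not given, they cannot be read as a measure of spread between clones. Differences in summed TPM shares were tested with an exact permutation test. Regions were placed with GENCODE vM1 gene models on mm9, and motifs were searched on both strands. Same-numbered libraries of different genotypes did not deviate together (correlations from −0.049 to 0.04), so the numbers did not pair them.

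The text names the 9 members, at most 4 called genes per further list and comparison by size of change, and Runx1, Runx2, Runx3, Zeb1 and Zeb2. Members and lists were chosen with earlier results of these data known. The sequence of 1 peak is not reported here.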

Additional observations from a re-analysis of the deposited data

How the results depend on the processing

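The settings were pseudocounts of 0.1 and 0.5, no filter and a 5 TPM filter, median-ratio and quantile scaling, a single fit over the 9 libraries, no variance trend, each library left out, and a replicate block. The count of members over 2-fold was 0 and became 2 (pseudocount 0.1) and 1 (median-ratio scaling) in Runx1KO against control, and 1 (pseudocount 0.1) in Runx1KO against ZebDKO cells. Leaving out a library gave 5 to 7 members called in ZebDKO against control, 5 in Runx1KO against control and 7 to 8 between the knockouts. Signs turned for Tle1 in Runx1KO against control (quantile, −0.0098), for Hdac2 there (leave-one-out range −0.0157 to 0.0533), and for Ctbp2 in ZebDKO against control (median-ratio 0.0887, quantile 0.0722); the cause was not tested. Of 142, 129 and 130 member values in Runx1KO against control, ZebDKO against control and between the knockouts, 134, 107 and 128 kept direction and call. With the replicate block, which rests on numbers the libraries only share, 6 members were called in ZebDKO against control, with Tle6, Ctbp1 and Ctbp2 lost; it changed no other call.

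In the 6-library table the shares of Tle1, Tle2, Tle3 and Tle4 differed by 2.43, −3.45, −27.8 and 28.8 points between Runx1KO and control, a setting added for shares after seeing the data. For fold changes that table gave further calls of Tle1 (adjusted p = 0.022) and Ctbp2 (adjusted p = 0.0208), and Ctbp2 also passed under 3 other settings and Ctbp1 under 1. Runx1 peaks at members numbered 9 within 100 kb and 20 by the GREAT rule, closing regions 23 and 18, opening regions 1 within 5 kb, 9 within 100 kb and 10 by the GREAT rule, and stable regions 67 within 100 kb. Count models and a cut on the deposited ATAC-seq p-values were not run, since counts are not used here and those p-values are the authors' own comparison. Depth is not known from TPM, so the precision of Tle1 near 1 TPM rests on 3 libraries alone.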
